A study of Mus musculus with 3 samples.

Results

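Maturing neutrophils that carried Retnlg and Mmp8 were described among bone marrow cells sorted for CD133. Retnlg encodes a resistin-like protein secreted by neutrophils, and Mmp8 encodes neutrophil collagenase. A cell counted as a member when Retnlg and Mmp8 together made up at least 10 of every 10000 of its UMIs (unique molecular identifiers, so that PCR copies of 1 captured mRNA count once) and Mpo, the peroxidase of early granulocyte precursors, fewer than 10. It also had fewer than 10 UMIs in all of Ms4a6c, Csf1r, F13a1, Cd79a, Vpreb3, Prss34, Mcpt8, Gzma and Cd74, which mark other blood cells. Before this rule, cells were kept if they had at least 200 genes, at most 20% mitochondrial UMIs and a UMI total between the 5th and 95th percentile of their own library. Of 26838 kept cells, 3832 (14.3%) were members. The members were thus chosen by the measured levels of these 12 genes, which are therefore given only as a description.

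Neutrophils develop in the bone marrow from promyelocytes through myelocytes and metamyelocytes to band and segmented cells. Granules are filled in order along this path. Azurophil granules with myeloperoxidase and serine proteases are made first, specific granules with lactoferrin and cathelicidin later, and gelatinase granules with matrix metalloproteinases last. Cells leave the cell cycle after the myelocyte stage, retention in the marrow depends on CXCR4 and release into blood on CXCR2.

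The study made 3 single-cell 3′ libraries of CD133+ cells from the bone marrow of mice labelled C57BL/6, sorted with an antibody against CD133 (Prom1), 1 each from groups called young, old and control, with cells of 3 mice pooled. The labels give an age of 3 months to the young and the control library and of 27 months to the old library, for which the design text gives 18.5 months. That text names another tissue, while the sample labels name bone marrow. No treatment of the 3 groups is named, and the labels do not say what sets the control apart from the young library. The study used its control library to characterise the CD133+ cells, apart from its comparison of young and old mice, and calls the mice of that library C57BL/6N. The libraries held 8362 young, 10597 old and 10869 control cells with 81434722, 138030352 and 108985799 UMIs. Each group is 1 library, so age, mice and library cannot be told apart, no test was made, and intervals (exact, 95%) cover counting error only.

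The libraries differed in ways that bear on the values below. Kept cells of the old library were deeper, with a median of 13039 UMIs against 9720 in the young and 9561 in the control library, and its UMI range after trimming was 5345 to 21130 against 3273 to 17462 and 3423 to 18081. Cells with at least 10 UMIs of the 9 markers of other blood cells made up 610 of 7521 kept cells in the young library, 70 of 9537 in the old and 65 of 9780 in the control. The young and old libraries shared 120 cell barcodes, the young and control 125, and the old and control 161. Among these, both cells were members for 4, 0 and 1 barcodes. All 3 libraries had the Y-linked Ddx3y (21.4, 15.4 and 21.0 per 1000000 UMIs in the young, old and control members), while Xist was at or near 0, with a highest value of 0.0413 in the old members.

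Members made up 11.9% of kept cells in the young library (892 cells, 95% interval 11.1 to 12.6), 25.5% in the old (2431 cells, 24.6 to 26.4) and 5.20% in the control (509 cells, 4.77 to 5.66). The 3 intervals did not overlap. The old share was the highest, and the young and control libraries, both labelled 3 months, differed from each other as well. Cells under both limits, with little Mpo and little Retnlg or Mmp8, made up 54.7%, 49.7% and 67.5% of the young, old and control libraries, and cells with Mpo at or above its limit 25.4%, 24.0% and 26.6%. The Mpo share thus stayed within a narrow range while the member share did not. With a limit of 100 in place of 10, 3.88% of kept cells were found in the young library, 5.39% in the old and 1.53% in the control. The order of the libraries was the same at both limits, but the old and young shares lay closer together at the higher one.

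**Figure D1:**
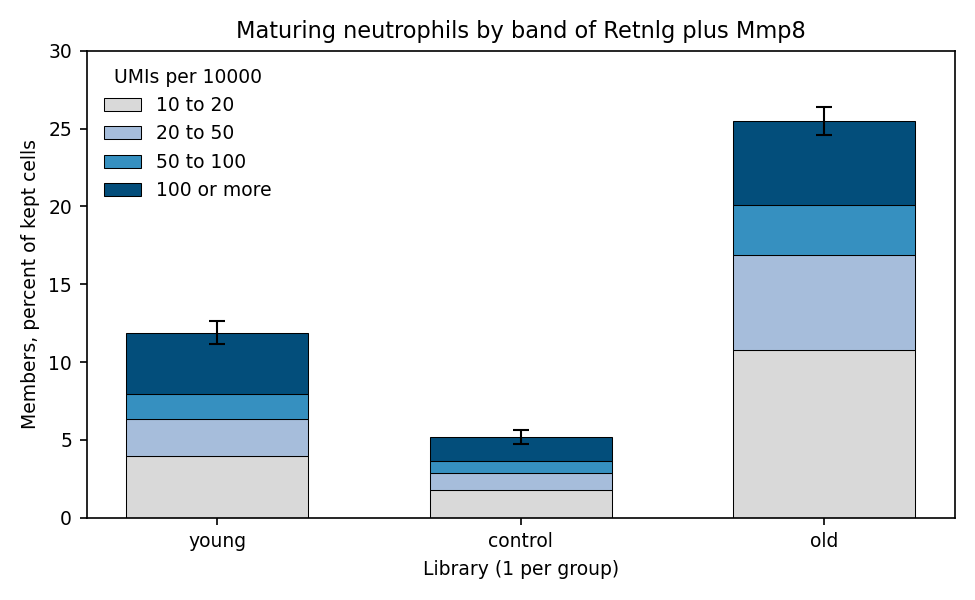
Members as a percent of kept cells in each library (1 per group), stacked by band of Retnlg plus Mmp8 in UMIs per 10000. Bars on top are exact 95% binomial intervals of the whole share. Members reached 25.5% in the old library, and the lowest band took 10.8% of kept cells there.

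The members were not of equal strength. Split into 4 bands of Retnlg plus Mmp8 per 10000 UMIs, 299, 177, 124 and 292 young members fell at 10 to 20, 20 to 50, 50 to 100 and 100 or more. The old library had 1029, 584, 304 and 514 members in the same bands, and the control 175, 109, 75 and 150. The lowest band held 42.3% of the old members (40.4 to 44.3), 33.5% of the young (30.4 to 36.7) and 34.4% of the control (30.3 to 38.7). The old library thus had relatively more members near the limit, and band values are given below beside the totals where libraries are compared.

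Members carried fewer UMIs than the other kept cells of their library, with medians of 4696, 9421 and 4941 in the young, old and control libraries against 10242, 13955 and 9805. Their median gene numbers were 1096, 1654 and 1104. Medians of UMIs were lowest in the band of 100 or more, at 3979, 6884 and 4382. Thinned to 3000 UMIs, members had a median of 805, 801 and 782 genes in the young, old and control libraries, against 888, 913 and 888 in cells under both limits. Members thus had fewer genes at equal depth in every library. Few transcripts and few genes per cell are usual for late neutrophils.

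The limit cut through a continuous range. Young cells just outside it, at 8 to 10 UMIs of both markers per 10000 and meeting the other conditions, numbered 274, and those just inside, at 10 to 12, numbered 140. In the old library 692 lay just outside and 381 just inside, and in the control 113 and 67. A cell at the limit carried a median of 7, 13 and 6 UMIs of both markers in the young, old and control libraries. Mmp9, which the rule did not use, was at 90.4 UMIs per 1000000 just outside and 210 just inside in the young library. It was at 82.1 and 134 in the old library and at 191 and 339 in the control. Some cells with markers of other blood cells, which the rule left out, also reached 10 of both markers per 10000. They were 41 of 610 young (6.72%), 13 of 70 old (18.6%) and 4 of 65 control cells (6.15%). At 100 or more there were 5, 1 and 1. Thinned to 3000 UMIs, 68.2%, 64.3% and 41.5% of all such cells had Retnlg. The limit alone thus did not set neutrophils apart from these cells. How many members near it are of other types was not tested.

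All levels below are the UMIs of a gene per 1000000 UMIs, summed over the cells named (CPM). Retnlg (chr16:48872621-48874496, GRCm38, GENCODE M21) was at 8495 CPM in young members, 5036 in old and 7820 in control members, against 450, 499 and 231 in the other kept cells. Mmp8 (chr9:7558456-7568485) was at 1099, 675 and 926 CPM against 27.7, 26.9 and 13.3. Both markers were lowest in the old members, where the lowest band was the largest. Of single members, 22.2% in the young library, 30.2% in the old and 24.4% in the control had no UMI of Mmp8 and entered by Retnlg alone. The median Retnlg level was 28.8, 22.3 and 29.1 UMIs per 10000, with 5th and 95th percentiles of 6.88 and 444, 9.70 and 277, and 5.16 and 422.

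Members against other kept cells were compared by size alone, since the rule used the same contrast. The 12 genes of the rule were left out, and 5111 genes with enough UMIs (10 CPM in members or others of every library) were compared. In all 3 libraries, 134 genes were at least 2 times higher in members (2.62% of those compared) and 826 at least 2 times lower (16.2%). The median over all compared genes was -0.51, -0.47 and -0.49 on the log2 scale in the young, old and control libraries. Values are shares of all UMIs, so the counts depend on the scaling: with members and other cells scaled by the median ratio of all genes, 354 were higher and 164 lower. Against cells under both limits alone, 105 were higher and 215 lower.

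The markers fixed for maturing neutrophils were found in members. Of 10 that could be compared, 2 were at least 2 times higher in every library and 0 lower (2.62% and 16.2% over all genes), with a median log2 difference of 0.78, 0.58 and 0.60. S100a8 and S100a9, which together form calprotectin, reached 197515 and 109158 CPM in young members, 196388 and 106467 in old and 200638 and 117461 in control members. In the other kept cells S100a8 was at 133570, 130858 and 139603 CPM, so that it was high outside the members too. The genes that set members apart were therefore not the most abundant ones.

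Mmp9, gelatinase B and the defining enzyme of the gelatinase granules, showed the widest gap of the genes outside the rule with at least 100 CPM in members or others of every library. It was at 688 CPM (666 to 711) in young members, 491 (482 to 500) in old and 655 (626 to 684) in control members. In the other kept cells it was at 39.8, 40.9 and 35.9 CPM. The log2 difference was 4.11, 3.58 and 4.19, so Mmp9 was high in members of all 3 libraries. Over all members it was lowest in the old library, but not in the upper 2 bands: at 50 to 100 it was at 724, 892 and 648 CPM in the young, old and control libraries, and at 100 or more at 1249, 1148 and 1090. At 3000 UMIs per cell, Mmp9 was seen in 77.6% of young members, 62.1% of old and 77.6% of control members. The shares in cells under both limits were 13.7%, 12.8% and 11.98%, and without thinning 27.3%, 36.7% and 23.2%. The shares in cells with Mpo at or above its limit were 8.70%, 6.85% and 5.26%, and without thinning 20.9%, 28.1% and 13.7%, against 86.5%, 81.3% and 85.5% in members.

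Of 4 gelatinase granule genes compared, 3 were at least 2 times higher in members, against 2.62% over all genes: Mmp9, Slpi and Adam8. Slpi, a secreted inhibitor of neutrophil elastase, was at 1242, 967 and 1088 CPM in young, old and control members against 310, 299 and 220 in the others. Adam8, a membrane metalloprotease, was at 53.3, 44.3 and 62.6 CPM against 4.52, 9.71 and 5.87. Ceacam1, an adhesion receptor, differed little, with 125, 149 and 136 CPM against 114, 118 and 123. Over all members the old library was lowest for Slpi and Adam8, but in the band of 50 to 100 it was the highest for both, with Slpi at 1133, 1295 and 1173 CPM and Adam8 at 56.7, 59.8 and 56.6. It was the highest in no other band. Slpi was lowest in the old library at 10 to 20 (610, 508 and 581 CPM). Adam8 was lowest there at 20 to 50 (53.1, 41.9 and 56.4) and at 100 or more (90.0, 83.7 and 110).

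Of 11 specific granule genes compared with the other kept cells, 1 (Padi4) was at least 2 times higher and 0 were lower (2.62% and 16.2% over all genes), and the median log2 difference was 0.44, 0.30 and 0.37. Ltf, lactoferrin, was at 8784, 10182 and 8620 CPM in young, old and control members and at 7402, 6959 and 6866 in cells under both limits. Camp, cathelicidin, was at 59189, 37905 and 54885 CPM in members and at 71580, 45400 and 65080 in cells under both limits. Ngp, a cystatin-like granule protein, was at 60188, 62337 and 63398 against 69805, 65410 and 72528 CPM. Camp and Ngp were lower and Ltf higher in members than in cells under both limits of the same library.

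Azurophil granule genes were low. Of 7 compared, 5 were at least 2 times lower in members in every library and 0 higher (16.2% and 2.62% over all genes), with a median log2 difference of -2.08, -1.88 and -1.96. Elane, neutrophil elastase, was at 1048, 779 and 1374 CPM in young, old and control members against 7839, 5817 and 7300 in the other kept cells. Prtn3, proteinase 3, was at 410, 558 and 715 CPM against 2501, 2778 and 2892, and Ctsg, cathepsin G, at 170, 228 and 223 against 1133, 1512 and 1062. Mpo, which the rule held low, was at 365, 278 and 390 CPM against 2613, 1772 and 2096. The comparison with Mpo-containing cells is built into the rule, and against cells under both limits the gap was smaller. Elane was at 1511, 1487 and 1925 CPM there and Prtn3 at 588, 1034 and 985, both above the members. Ctsg was at 146, 238 and 188 CPM there. It was thus higher in members of the young and control libraries and differed little in the old. Elane was seen at 3000 UMIs in 92.7%, 87.2% and 95.9% of members, and in 90.5%, 88.6% and 93.8% of cells with markers of other blood cells, so the share with a UMI did not separate these classes.

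Receptors of late neutrophils were high. Of 14 genes for sensing microbes and chemoattractants, 7 were at least 2 times higher in members and 0 lower, against 2.62% and 16.2% over all genes (median 1.27, 0.96 and 1.12). Fpr2, a formyl peptide receptor, was at 196, 226 and 285 CPM in young, old and control members against 33.3, 55.0 and 59.2 in the others. Cxcr2, the receptor for CXCL1 and CXCL2, was at 143, 170 and 182 CPM against 18.5, 53.4 and 33.2. At 3000 UMIs Cxcr2 was seen in 33.9% of young, 39.8% of old and 38.7% of control members, in 6.37%, 18.6% and 12.4% of cells under both limits and in 4.30%, 8.12% and 4.80% of the cells with Mpo at its limit or above. Fcer1g, the signalling chain of Fc receptors, was at 2675, 2355 and 2695 CPM against 1395, 1521 and 1272. Of 6 receptors of growth factors 0 were past the limit in either direction, too few genes to set against the 2.62% and 16.2% over all genes.

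**Figure D2:**
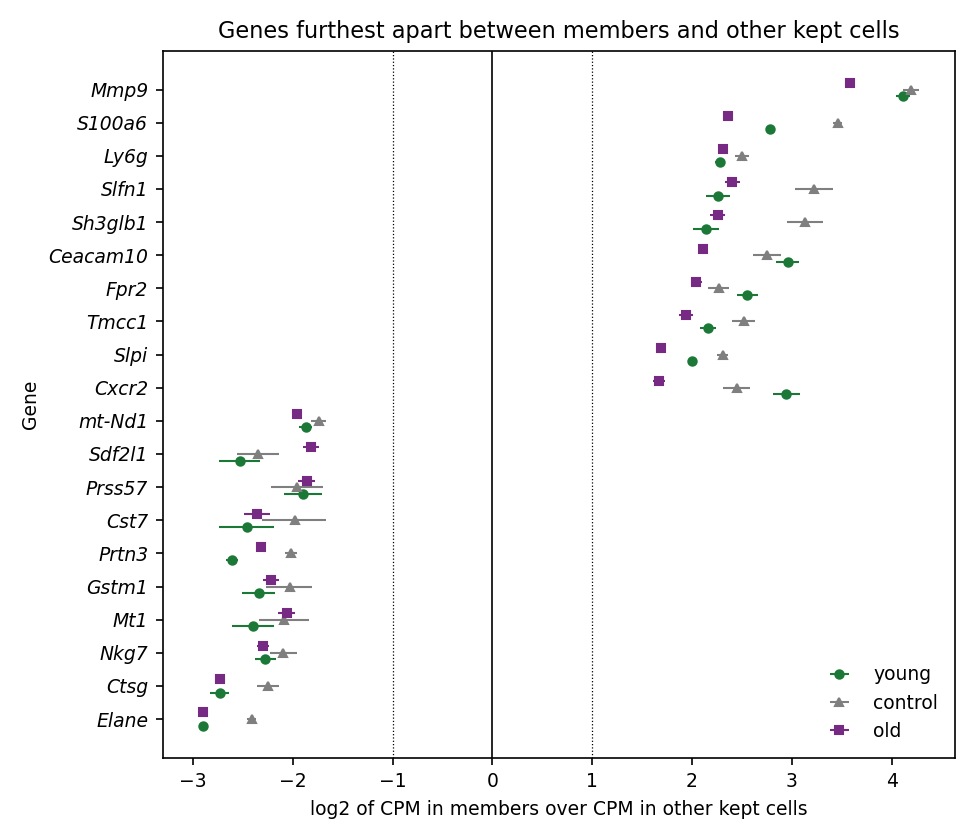
The log2 ratio of CPM in members over CPM in the other kept cells for the 10 highest and 10 lowest genes of at least 100 CPM, 1 point per library with its exact 95% counting interval; dotted lines mark the 2-fold limit. Mmp9 lay furthest to the right at 3.58 to 4.19, and Elane furthest to the left at -2.90 to -2.41.

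The list of late maturation genes had 10 of 19 genes at least 2 times higher (2.62% over all genes) and 0 lower, with a median log2 difference of 1.20 in the young and 1.35 in the control library and a lower one in the old. The surface protein Ly6g, used to sort mouse neutrophils, was at 831, 329 and 641 CPM in young, old and control members against 171, 66.4 and 113. S100a6, a calcium-binding protein, was at 2315, 5478 and 1833 CPM against 336, 1069 and 167. The other genes among the 10 with the widest gap were Slfn1, Sh3glb1, Ceacam10 and Tmcc1, with log2 differences of at least 1.94 in every library. The transcription factors compared showed 2 of 13 higher (Klf2 and Mxd1), 2 lower (Gfi1 and Myb, a share near the 16.2% over all genes) and medians of -0.21, -0.21 and 0.21. Cebpe, which drives the specific granule programme, was at 826, 695 and 667 CPM in members and at 1159, 1027 and 1051 in cells under both limits. The NADPH oxidase list had 0 of 7 genes past the limit (2.62% higher and 16.2% lower over all genes), and Cyba, its membrane subunit p22phox, was at 2809, 2816 and 2975 CPM in members.

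Genes of DNA replication were low in members. Of 19 S phase genes, 18 were at least 2 times lower in every library and 0 higher (median -1.48, -1.71 and -1.57), against 16.2% lower over all genes compared. Rrm2, a subunit of ribonucleotide reductase, was at 132, 183 and 126 CPM in young, old and control members against 350, 509 and 362 in the others. Pcna, the replication clamp, was at 64.3, 47.1 and 51.7 CPM against 176, 155 and 149. Of 20 genes of G2 and mitosis, 9 were at least 2 times lower and 0 higher (median -1.11, -1.01 and -1.24). Top2a, topoisomerase II alpha, was at 126, 100 and 88.9 CPM against 284, 234 and 257, and at 3000 UMIs it was seen in 18.4%, 16.5% and 14.1% of members against 48.3%, 45.2% and 46.9% of cells under both limits. Mitotic transcripts were thus lower in members but not at 0.

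Ribosomal protein genes were lower than in all other kept cells too, with 28 of 81 past the limit downward (16.2% over all genes) and 0 upward (median -1.21, -0.92 and -1.21). Much of this gap lay with the cells that the rule set aside for Mpo, where the summed level was 186885, 195613 and 189967 CPM, against 51213, 72783 and 48614 in young, old and control members and 70151, 105076 and 71519 in cells under both limits. Of 12 mitochondrially encoded genes compared, 7 were lower (16.2% over all genes) and 0 higher (median -1.43, -1.28 and -1.05), and mt-Nd1, a subunit of complex I, was at 337, 289 and 470 CPM in young, old and control members against 1234, 1121 and 1568 in all others and 636, 601 and 903 in cells under both limits. Sdf2l1, an endoplasmic reticulum protein, was at 37.1, 61.1 and 61.2 CPM against 214, 216 and 311, but at 49.9, 79.2 and 96.1 in cells under both limits, far closer to the members. Immediate early genes went the other way, with 5 of 7 at least 2 times higher against 2.62% over all genes (median 1.29, 1.22 and 1.78). Of 18 actin and motility genes 0 were past the limit in either direction (2.62% higher and 16.2% lower over all genes), with Tmsb4x, thymosin beta 4, at 21613, 18662 and 22361 CPM in members.

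Prom1 (chr5:43993620-44102032), which encodes the CD133 antigen of the sort, was lower in members than in other kept cells. It was at 23.2 CPM (19.2 to 27.7) in young members, 27.5 (25.4 to 29.6) in old and 33.1 (26.9 to 40.4) in control members, against 44.9, 51.2 and 53.2 in the others. At 3000 UMIs it was seen in 5.72%, 7.12% and 6.68% of members, in 10.9%, 11.1% and 12.2% of cells under both limits and in 19.0%, 18.6% and 20.6% of cells with Mpo at its limit or above. Cells with markers of other blood cells had it in 2.62%, 4.29% and 4.62%, the last 2 from only 70 and 65 cells. Without thinning, the shares in members were 11.7%, 22.6% and 15.9%, at median depths of 4696, 9421 and 4941 UMIs. The young share in members (4.29 to 7.45) lay above that in young cells with markers of other blood cells (1.51 to 4.22), and in the old and control libraries these intervals overlapped.

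Several genes outside the rule followed the 4 bands in the same direction in all 3 libraries. Cxcr2 went from 47.3, 101 and 96.8 CPM in the band of 10 to 20 of the young, old and control libraries to 302, 370 and 351 in the band of 100 or more. Slpi went from 610, 508 and 581 CPM to 2353, 2228 and 2091. In cells under the limit Slpi was at 316, 303 and 236 CPM, so its level followed the markers from below the limit upward.

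Camp was lower in the higher bands, at 69248, 44689 and 64072 CPM in the lowest band and 41185, 18965 and 37720 in the highest. Cebpe went from 970, 854 and 782 CPM to 562, 328 and 451, and Top2a from 181, 152 and 96.8 to 55.4, 29.1 and 48.4. Cebpb, a related factor that acts in emergency granulopoiesis, went from 186, 288 and 205 CPM to 474, 520 and 807. Elane was at 1025, 1101, 1111 and 1000.5 CPM from the lowest to the highest band of the young library, at 808, 733, 845 and 711 in the old and at 1172, 1745, 1682 and 1126 in the control, whose middle bands were higher than its ends. Cxcr4 went from 66.7 to 51.1 CPM in the control library and from 18.0 to 15.5 in the old, but from 70.4 to 88.5 in the young. Within the members, then, Camp and Top2a were lower and Cxcr2 higher in the highest band than in the lowest of each library. Elane was lower there too, but by little, and Cxcr4 had no common direction. These are levels in the same cells that set the bands, given as a description.

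**Figure D3:**
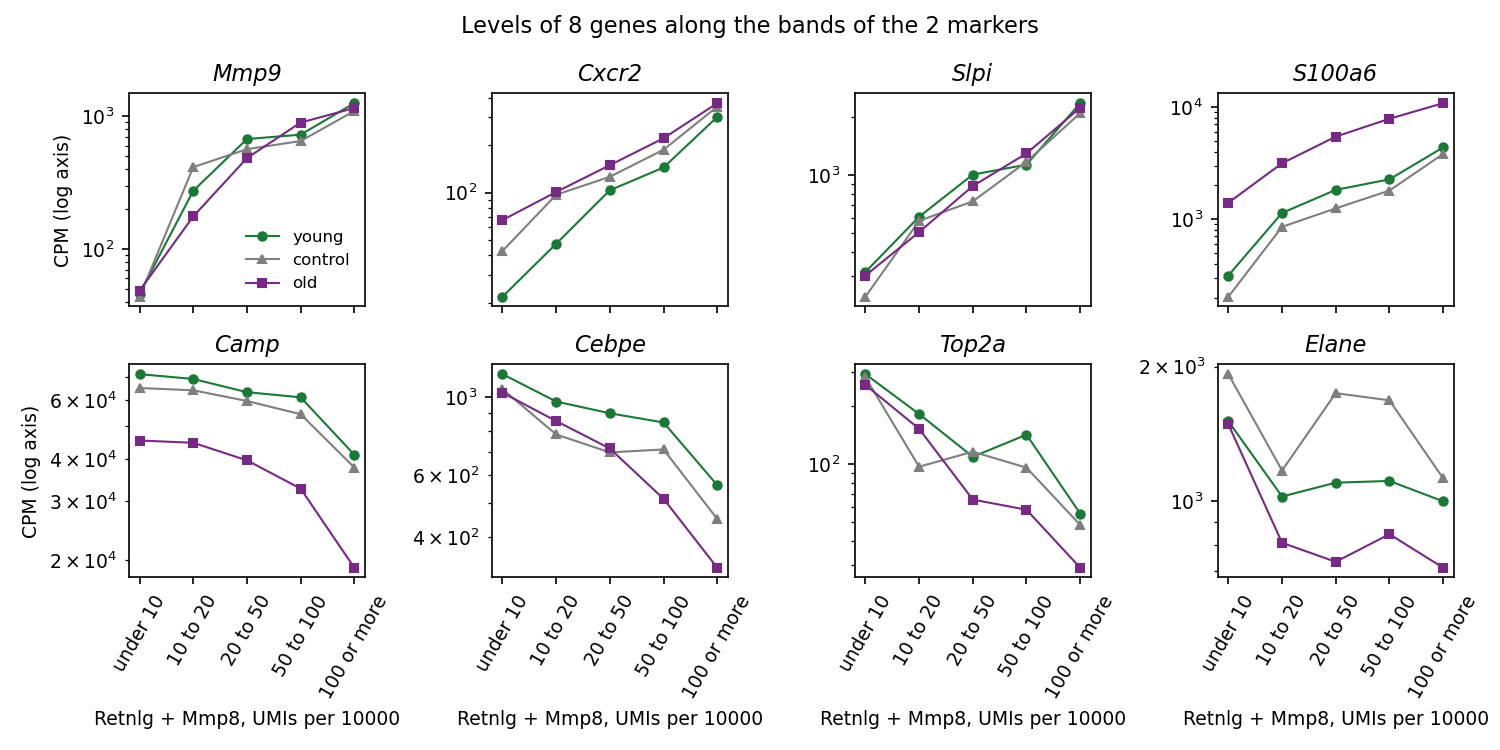
CPM (log axes, ranges differ between panels) of 8 genes in cells under the limit and in the 4 bands of members, 1 line per library. Mmp9, Cxcr2, Slpi and S100a6 were higher in higher bands, Camp, Cebpe and Top2a were lower in the highest band than in the lowest, and Elane in the control members was highest in the middle bands.

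Between libraries, each was compared with the nearer of the other 2, so that a gene counted only if the library stood apart from both. A gene was counted at 1.5 times or more, among 5166 genes with at least 10 CPM in members of any library. In old members 212 genes were higher (4.1%) and 496 lower (9.6%). In young members 235 were higher (4.55%) and 92 lower (1.78%), and in control members 71 were higher (1.37%) and 140 lower (2.71%). The old library had the most lower genes, but among genes with at least 50 CPM it had 83 higher and 75 lower, so that this balance turned. A library with fewer members has wider counting error, and the control members had 2957467 UMIs in all against 24200325 in the old and 5176438 in the young.

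The genes highest in old members included 4 of the stefin A group, small inhibitors of cysteine proteases whose genes are near-identical copies, so reads may be shared among them. BC100530 was at 1053 CPM (1040 to 1066) in old members against 99.7 (91.3 to 109) in young and 30.1 (24.2 to 37.0) in control members. Stfa1 was at 631 CPM in old against 119 and 44.6 in young and control members, Stfa2 at 136 against 19.1 and 3.38, and Stfa3 at 148 against 19.3 and 6.09. All 7 stefin A genes that could be compared were at least 1.5 times higher in old members (4.1% over all genes), and 6 were lower in control members (2.71%). In cells under both limits BC100530 was at 12.9, 311 and 16.3 CPM in the young, old and control libraries, so the old library was high there too. At 3000 UMIs it was seen in 35.7% of old members and 28.0% of old cells under both limits, and in 5.27% and 2.55% of young and control members.

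The remaining genes of this group were Wfdc17, Ifitm1, Asprv1 and Cd38. Wfdc17, which encodes a small secreted protein of myeloid cells, was at 986 CPM in old members against 139 in young and 93.7 in control members. Most of this lay in the band of 100 or more, where it was at 4349 CPM in the old library, 389 in the young and 139 in the control. Ifitm1, an interferon-induced membrane protein, was at 868, 156 and 66.3 CPM in old, young and control members. Asprv1, a retroviral-like aspartic protease, was at 235, 49.5 and 32.5 CPM, and Cd38, an enzyme that consumes NAD, at 53.5, 5.02 and 6.76. All 8 genes were higher in the old library in each of the 4 bands. In cells under both limits Wfdc17 was at 11.9, 135 and 10.8 CPM in the young, old and control libraries and Ifitm1 at 14.8, 213 and 5.41. Asprv1 was at 3.46, 37.5 and 2.94 CPM there and Cd38 at 1.38, 25.1 and 2.14. The old library was thus highest for these genes outside the members too.

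Thbs1, thrombospondin 1, an adhesive glycoprotein that inhibits angiogenesis, was nearly missing from old members. It had 5 UMIs in 2431 old members, or 0.207 CPM (0.0671 to 0.482), against 42.5 CPM (37.1 to 48.5) in 892 young and 104 (93.2 to 117) in 509 control members. The log2 ratio of old over young was -7.68 (-9.32 to -6.44) and of old over control -8.98 (-10.62 to -7.74). In cells under both limits it was at 1.73, 0.0158 and 2.14 CPM in the young, old and control libraries, far below the members of the young and control libraries. In the band of 100 or more it was at 87.8, 0.258 and 231 CPM.

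Cxcr4, the receptor that holds neutrophils in the marrow, was at 16.5 CPM (14.9 to 18.2) in old members, 79.4 (71.9 to 87.5) in young and 59.5 (51.0 to 69.0) in control members. The log2 ratio of old over young was -2.26 (-2.47 to -2.06) and of old over control -1.85 (-2.11 to -1.58), and the old library was lower in each of the 4 bands. Cells under both limits showed the same order, with 52.3, 17.5 and 34.5 CPM in the young, old and control libraries. Its counterpart Cxcr2 was not past the limit in any library. Of 11 genes of adhesion, retention and egress, 3 were lower in old members (Cxcr4, Itgal and Cd44) against 9.6% over all genes, 0 were higher, and the median log2 ratio of old over young was 0.04.

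The other lowest genes of old members were Ldhc, Hbb-bs, Hba-a1, Ifi27l2a, Isg15 and Ifit3. Ldhc, a lactate dehydrogenase best known from testis, was at 9.67 CPM in old, 50.2 in young and 114 in control members. The globin transcripts Hbb-bs and Hba-a1 were at 3.51 and 2.44 CPM in old members, 101 and 70.5 in young and 13.5 and 12.5 in control members. In cells under both limits Hbb-bs was at 497, 7.21 and 131 CPM in the young, old and control libraries, above its level in members. Ifit3 had 6 UMIs in old and 4 in control members, so its ratio between these libraries was loosely bounded (log2 -4.52 to -0.18).

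**Figure D4:**
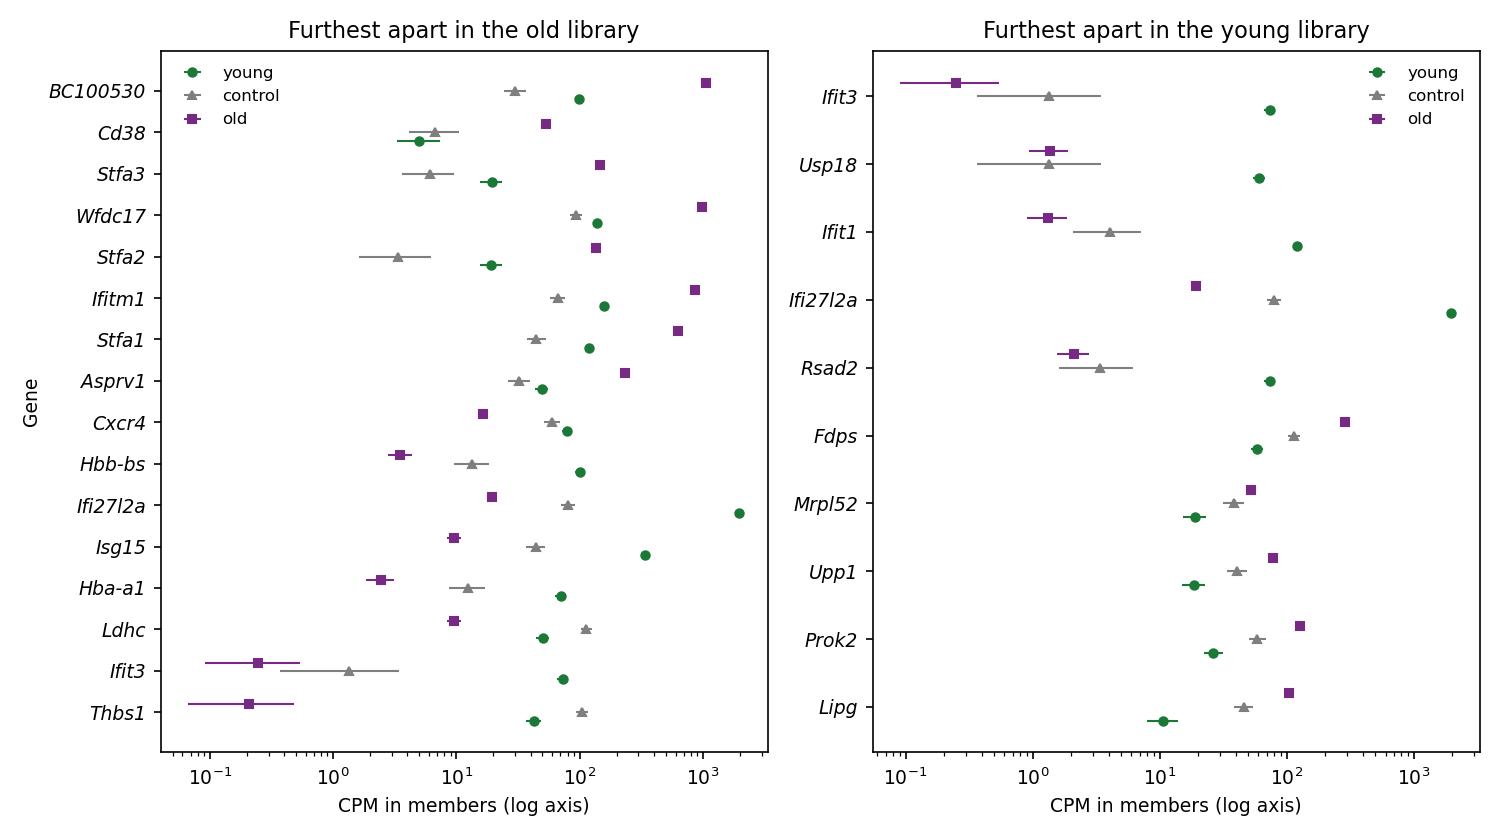
CPM in members (log axis) with exact 95% counting intervals, for the 16 genes furthest apart in the old library (left) and the 10 furthest apart in the young library (right), 1 point per library. BC100530 reached 1053 in the old library, Thbs1 0.207, and Ifi27l2a 1969 in the young library.

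Young members were set apart by interferon-stimulated genes. Of 22 compared, 22 were at least 1.5 times higher in the young library than in the nearer of the other 2, against 4.55% over all genes. Ifi27l2a, a small interferon-induced protein, was at 1969 CPM (1931 to 2007) in young members, 19.4 (17.7 to 21.2) in old and 80.1 (70.3 to 91.0) in control members. Ifit1, which binds viral RNA, was at 121, 1.32 and 4.06 CPM, Rsad2, the antiviral protein viperin, at 73.6, 2.11 and 3.38, and Usp18, which removes ISG15 from proteins, at 60.7, 1.36 and 1.35. The young library was also higher in each of the 4 bands for all of these, and Ifi27l2a stood at 1144 CPM in its lowest band and 3368 in its highest.

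The summed level of the 24 interferon-stimulated genes was 3992 CPM in young members, 238 in old and 342 in control members. In cells under both limits it was 1652, 172 and 160 CPM, and in cells with markers of other blood cells 10874, 1880 and 3034. At 3000 UMIs Ifi27l2a was seen in 81.6% of young members, 4.52% of old and 12.8% of control members. It was also seen in 42.5% of young and 0.611% of old cells with Mpo at its limit or above. The young signal was thus present in every class of cells of that library, and members had more of it than cells under both limits in all 3 libraries. In cells with Mpo at its limit or above the summed level was 1603, 327 and 296 CPM in the young, old and control libraries. Old members were thus below these old cells. Of 13 genes for MHC class I and its peptide supply, 12 were higher in young members (4.55% over all genes) and 0 lower, with B2m, its light chain, at 2296, 806 and 982 CPM in young, old and control members.

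Genes lowest in young members were Lipg, Prok2, Upp1, Mrpl52 and Fdps. Lipg, an endothelial lipase, was at 10.6 CPM in young members, 104 in old and 46.0 in control members. Prok2, a secreted chemoattractant of neutrophils, was at 26.5, 128 and 58.8 CPM, and Upp1, uridine phosphorylase, at 18.5, 77.5 and 40.6. For each of these the control lay between the young and the old library. In cells under both limits Prok2 was at 0.652, 7.70 and 1.77 CPM in the young, old and control libraries. Upp1 was at 0.853, 12.3 and 4.51 CPM there, so the young library was lowest for both outside the members too.

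Fdps, the farnesyl diphosphate synthase that the study followed, was at 58.5 CPM (52.1 to 65.5) in young members, 290 (283 to 296) in old and 114 (102 to 127) in control members. The log2 ratio was 2.31 (2.14 to 2.48) for old over young, 1.35 (1.19 to 1.51) for old over control and 0.96 (0.73 to 1.19) for control over young. The last ratio, between libraries labelled with the same age, was also past the limit. In cells under both limits Fdps was at 64.1, 310 and 138 CPM, so members did not differ much from them. At 3000 UMIs it was seen in 12.7% of young, 50.8% of old and 26.9% of control members. Across the bands it went from 66.2, 308 and 104 CPM in the lowest to 43.2, 233 and 96.9 in the highest.

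Of 16 sterol synthesis genes compared, 12 were higher in old members (4.1% over all genes) and 7 lower in young members (1.78%), and 0 went the other way. The median log2 ratio was 1.30 for old over young and 0.94 for old over control, against -0.05 and 0.00 over all genes. Idi1, the isomerase before Fdps in the pathway, was at 6.76, 33.1 and 26.0 CPM in young, old and control members, and Sqle, squalene epoxidase, at 1.35, 13.8 and 5.07. Tspo, a mitochondrial cholesterol-binding protein, was at 832, 1920 and 1386 CPM, and Anxa1, annexin A1, at 4767, 7187 and 4361. Mmp9 was not past the limit in any library.

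Control members had the fewest genes apart. Thbs1 was at 104 CPM against 42.5 in young members, Ldhc at 114 against 50.2, and F630028O10Rik, a long non-coding RNA gene, at 916 against 501 in young and 444 in old members. Picalm, an endocytic adaptor, was at 51.1 CPM in control, 28.8 in young and 22.7 in old members, and Set at 71.7, 42.7 and 29.7. In cells under both limits F630028O10Rik was at 572, 549 and 1008 CPM in the young, old and control libraries. Ldhc was at 18.4, 7.82 and 38.9 CPM there and Set at 67.0, 59.9 and 121, so the control was highest there too. Picalm differed little there, at 14.6, 15.9 and 15.3 CPM. The 5 lowest genes of control members were all stefin A genes. Among them BC100530, Stfa2 and Stfa3 were lower in 3 of the 4 bands and Stfa1 and Gm5483 in 4.

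Of 11 maturing neutrophil markers compared between libraries, 0 were past the limit in any library, and of 11 specific granule genes also 0. Over all genes the shares were 1.37% to 9.6% in a direction, so few of 11 would be counted in any case. Of 7 azurophil granule genes, 2 were higher in old members (4.1% over all genes). These were Serpinb1a, an inhibitor of the serine proteases of these granules, at 1068, 2064 and 1287 CPM in young, old and control members, and Ctsc, the protease that activates them, at 10.4, 23.7 and 12.8. In the late maturation list 5 of 20 were higher and 2 lower in old members (4.1% and 9.6% over all genes), so that the lower share was near that over all genes, and 3 were higher and 3 lower in young members (4.55% and 1.78%). Ifitm6, a member of the interferon-induced membrane protein family, was at 3102, 7057 and 5595 CPM in young, old and control members, and Ifitm2 at 1089, 2980 and 1611.

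Of 18 S phase genes 0 were past the limit in any library. Over all genes the shares were 1.37% to 9.6% in a direction, so few of 18 would be counted in any case. Of 20 genes of G2 and mitosis 1 (Ccnb1, cyclin B1) was higher in old members, at 74.8 CPM against 41.0 in young and 37.9 in control. This is near the 4.1% higher in old members over all genes. Below the limit the genes of G2 and mitosis were mostly higher in the old library over all members, with a median log2 ratio of 0.43 for old over control (19 of 20 above 0), 0.13 for old over young (14 of 20) and -0.25 for control over young (1 of 20). Their summed level was 5178 CPM in the lowest band of old members against 4556 in the young and 3343 in the control, but the old library was the lowest in the other 3 bands, with 2062 against 2349 and 2558 in the highest. The order over all members thus held only in the lowest band. Of 82 ribosomal protein genes 23 were higher (4.1% over all genes) and 0 lower in old members (median log2 ratio 0.55 over young and 0.56 over control). The old library had the highest summed level in cells under both limits as well. Among members it was 84042 CPM in the lowest band of old members and 51760 in the highest, against 55088 and 42958 in the young, so the ribosomal difference was smaller in the highest band. Of 15 glycolysis genes 3 were higher in old members (4.1% over all genes), with Pkm, pyruvate kinase, at 924, 1602 and 957 CPM.

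Markers of other cell types were low in members and, for 10 of 11 lists, highest in the young library. Summed over the list, the 6 monocyte markers were at 34.4, 12.1 and 9.13 CPM in young, old and control members, and the 5 basophil and mast cell markers at 67.8, 8.10 and 22.7, led by Prss34 in the young and control libraries at 31.3 and 12.5 CPM. The 6 erythroid markers were at 246, 8.76 and 36.9 CPM, led by Hbb-bs, and the 6 B progenitor markers at 24.7, 2.02 and 7.44, led by Cd79b at 6.57, 1.40 and 4.73. For these 4 lists members were below the other kept cells of the same library. Some of these genes were part of the rule, which kept them low.

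The 4 megakaryocyte markers were at 30.9 CPM in young members, above the 19.9 in other young cells, and led by Pf4 at 21.1. This came from the band of 10 to 20, where their sum was 67.8 CPM. In the higher bands it was 8.38, 3.70 and 13.7 CPM, below the other young cells. The 5 macrophage markers were at 38.1, 7.98 and 14.5 CPM in young, old and control members, led by Vcam1, and the 5 eosinophil markers at 8.89, 0.372 and 2.03, led by Prg2 with Epx at 0 in all 3. The 5 dendritic cell markers were at 53.7, 6.24 and 11.5 CPM. The 5 NK and T cell markers were at 178, 107 and 152 CPM, of which Nkg7 made up 153, 107 and 151, and cells with Mpo at its limit or above had more of this list, at 1738, 1131 and 1504. Lists of stem cell and of endothelial markers were at most at 8.69 and 2.89 CPM in any library. Of the endothelial markers Cdh5, VE-cadherin, was at 0.193 CPM in young members and 0 in old and control members, and Tek at 0 in all 3.

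The young library had the most cells with markers of other blood cells, and its members had the highest level for all of these lists but the endothelial one. Globin transcripts were also highest in the young library, with Hbb-bs at 497 CPM in its cells under both limits. The old and control libraries had similar shares of cells with markers of other blood cells (0.734% and 0.665%). Hbb-bs nevertheless differed between them, at 7.21 and 131 CPM in their cells under both limits. The part of transcripts from other cells in the globin and interferon differences was not tested.

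**Figure D5:**
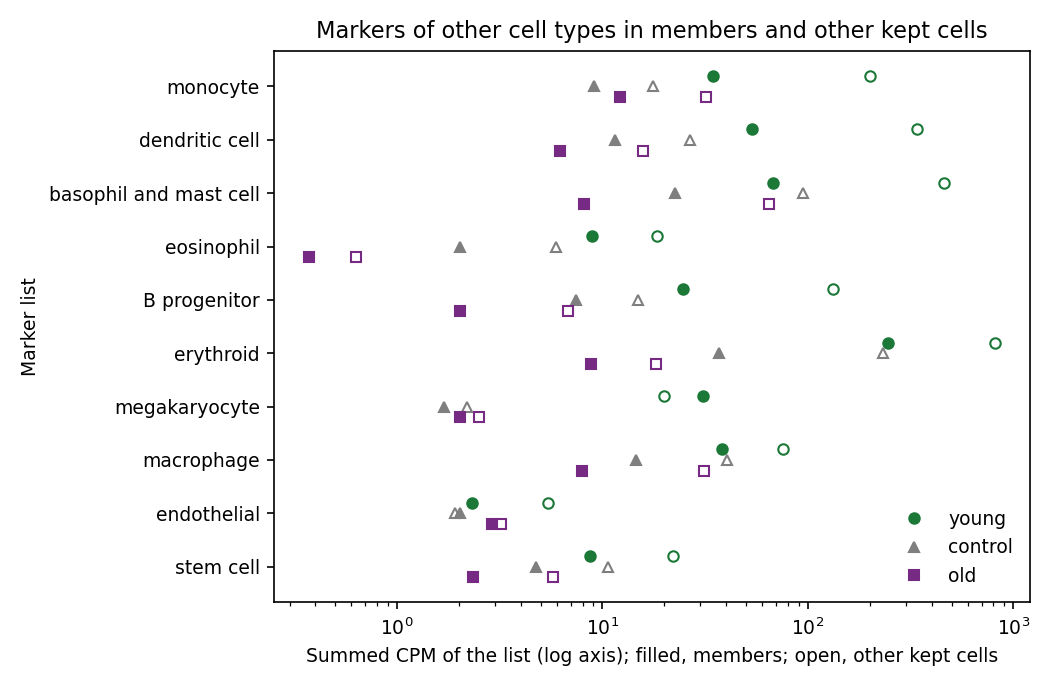
Summed CPM of the marker lists of 10 other cell types (log axis) in members (filled) and in other kept cells (open), 1 symbol per library. Among members the young library was highest for 9 lists, and the endothelial list did not exceed 2.89 in members of any library.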

How the data were processed

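CD133+ bone marrow cells were profiled in 3 single-cell libraries (10x 3′ kit) by the authors. Per the labels, reads were aligned with STAR to mm10 and processed with Cell Ranger 2.1.0. What the authors deposited is, for every cell, a count of UMIs for each of 27998 genes, whole numbers that were not normalized. Replicates do not exist, and the 3 mice of a library were pooled before capture.

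Cells were filtered and assigned by the limits given in the report. The members, the marker lists and the limits of size were chosen with earlier results of these data known. UMIs were summed over the cells of a class and given per 1000000 (CPM). Exact 95% intervals (Poisson for levels, conditional binomial for ratios, Clopper-Pearson for shares) cover counting error only, and a sum of 0 was set to a floor of 3 counts for ratios. The smallest and largest sums over members were 2957467 and 24200325 UMIs. Genes compared had at least 10 CPM. The 12 genes of the rule were left out, and limits were 2 times between cells and 1.5 times between libraries. Of 379 symbols in 37 lists, 3 were not found, and a further list held 83 ribosomal protein genes.

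Genes named were Retnlg, Mmp8, Mmp9, Mpo and Prom1, per list the gene with the most UMIs, up to 4 others by UMIs and up to 2 furthest past a limit, the 10 highest and 10 lowest of members against others (at least 100 CPM), and the 8 highest and 8 lowest of the old and 5 of the young and control library (at least 50 CPM). Further genes named as the few past a limit (Padi4, Gfi1, Myb, Mxd1, Itgal) and the choice of genes shown along the bands came after their values were seen. Doublets were not removed with a caller. An alternative left out members above the 75th percentile of UMIs. Shares of cells with a UMI were taken after thinning each cell to 3000 UMIs. Positions come from GENCODE M21, in which 27645 gene identifiers were found. The comparison between libraries was tried on simulated Poisson counts with known changes. That simulation covers counting error only. It does not bear on the choice of cells or on differences between mice or libraries. In total 14 alternatives were run in Python 3.11.15 with numpy 2.4.6, scipy 1.17.1, pandas 2.3.3 and matplotlib 3.10.9.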

Additional observations from a re-analysis of the deposited data

Results flagged for a closer look

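Cells left out for a low UMI total held many that met every other condition for members. In the young library 258 of 418 such cells (61.7%, exact 95% interval 56.9 to 66.4) did so, and in the old library 346 of 530 (65.3%, 61.1 to 69.3). Both are above the control library, where it was 161 of 544 (29.6%, 25.8 to 33.6), and far above the share of members among kept cells. These cells drew attention because the comparisons of the report do not use them. Their median level of Retnlg plus Mmp8 was 313 UMIs per 10000 in the young, 303 in the old and 215 in the control library, at median depths of 2954, 4559 and 3083 UMIs. Of the cells left out for a high total, 6 in the young, 47 in the old and 1 in the control library met the other conditions. The lower UMI limit thus removed cells with high marker levels, in different proportions by library.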

How the results depend on the processing

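Across 14 alternatives, 0 of 728 values of named genes changed sign against the value reported. These values do not cover every named gene in every alternative. Genes named for lying furthest apart were also unlikely to change sign. Alternatives that only moved the minimum CPM or the limits of size leave a gene's ratio as it was and could change no sign. Of 1053 list medians between libraries 97 changed sign, all of them under 1.5 times in the reported value. Among these, the G2 and mitosis median of old over control went from 0.43 to -0.25 at a limit of 20 and to -0.02 with the 4 bands weighted equally. Member shares were recomputed under the alternatives that change the cells. Of shares and counts 71 values stayed within their interval or within 1.5 times the count and 54 did not, and of named genes and list medians 1407 stayed and 374 moved. The member share in the young, old and control libraries was 32.1%, 53.4% and 12.1% with a limit of 5 UMIs per 10000, 7.88%, 14.7% and 3.42% with 20, 13.8%, 26.7% and 6.18% with no trimming of the UMI total, 17.6%, 33.3% and 7.25% with cells thinned to 3000 UMIs, and 8.90%, 19.1% and 3.91% without members above the 75th percentile of UMI totals. With percentiles over the libraries together it was 9.95% in the young and 28.2% in the old library. The order old, young, control was the same in each of these. Genes higher and lower in members than in other cells numbered 43 and 352 with a limit of 5, 89 and 357 after thinning, 354 and 164 with median-ratio scaling, 278 and 1536 with a minimum of 1 CPM, 47 and 296 with 50 CPM, and 59 and 118 with a limit of 3 times. Median-ratio scaling thus turned the balance from mostly lower to mostly higher genes. The lower genes numbered 1330 without members above that percentile and 215 against only cells under both limits.

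For the old library, higher and lower genes numbered 484 and 1417 with a minimum of 1 CPM, 83 and 75 with 50 CPM (no longer mostly lower), and 53 and 141 with a limit of 2 times. For the young library they numbered 877 and 397, 52 and 32, and 112 and 20 in the same order, with 166 lower without members above that percentile. For the control library they numbered 570 and 685, 15 and 32, and 9 and 31, with 33 higher at a limit of 5, 179 higher at a limit of 20, 131 higher without members above that percentile, and 218 lower after thinning. Fewer genes or cells enter by construction under several of these, and the cause of the other shifts was not tested. The median over all genes between libraries lay between -0.13 (old over young at a limit of 20) and 0.05 (old over control at a limit of 5) on the log2 scale. With the 4 bands weighted equally the old library had 207 genes higher and 539 lower. Depth limits the control library most, with 509 members. No paired analysis was possible because each group is 1 library and no test was made.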

Other observations

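Several other gene groups of members were measured. Of 7 heat shock genes, 4 were at least 2 times lower in members than in the other kept cells of every library and 0 higher, against 16.2% lower over all genes compared (median log2 difference -1.28, -1.27 and -1.43 in the young, old and control libraries). Hspa8, the constitutive HSP70, was at 523, 353 and 462 CPM in young, old and control members against 1046, 627 and 1030 in all others and 745, 458 and 706 in cells under both limits. The summed level of the 10 genes of the list was 1031, 789 and 1027 CPM in members, 1403, 997 and 1435 in cells under both limits and 3488, 2553 and 4638 in cells with Mpo at its limit or above, so members were much nearer to the former. Of 7 survival regulators, 1 (Bax) was lower, a share near the 16.2% over all genes, and Mcl1, an anti-apoptotic protein on which neutrophils depend, was at 71.5 CPM in young, 34.6 in old and 65.6 in control members. Mcl1 was at least 1.5 times lower in old members than in both others (9.6% over all genes), as was Xiap at 14.1 CPM against 25.7 and 24.0. Of 7 genes of G1 cyclins and CDK inhibitors, 2 (Cdk4 and Cdk6) were lower in members (16.2% over all genes), while Ccnd3, cyclin D3, was at 455, 518 and 486 CPM in members and 409, 504 and 490 in the others. Of 6 genes linked to nuclear shape and chromatin, 1 (Hmgb1) was lower, again a share near the 16.2% over all genes, at 533, 521 and 450 CPM against 1320, 1178 and 1206 in all others and 1166, 1067 and 1082 in cells under both limits, and Lbr, the lamin B receptor needed for lobed nuclei, was at 204, 226 and 194 against 228, 241 and 214.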
